A study of Mus musculus with 48 samples.

Results

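The genes described here are 46 type I interferon-stimulated genes, chosen by name from a fixed list and all found among the 54735 genes of the count tables. They were followed through 3 sorted populations of the mouse spleen that form a series toward the red pulp macrophage (RPM), the resident macrophage that takes up aged red blood cells and recycles their iron. The study asked how IL-33, acting through its receptor IL1RL1, controls this development, and total RNA was sequenced from monocytes (CD11b high, F4/80 negative), pre-RPMs (CD11b high, F4/80 low) and RPMs (CD11b low or negative, F4/80 high). The donors were Balb/c mice aged 10 weeks, wild type (WT) or Il1rl1-/-, with 4 mice per genotype, so that the 24 libraries fell into 6 groups of 4. Within a genotype the labels give the same mouse number to 1 library of each cell type. The Il1rl1-/- allele is carried by every cell of the animal rather than by macrophages alone, and the labels name no interferon, IL-33 or infection, so "interferon-stimulated" describes what the genes are known for, not a treatment in these samples.

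Type I interferons, the interferon-alpha and interferon-beta proteins, bind the receptor IFNAR1 and IFNAR2 and activate the kinases JAK1 and TYK2. The signal leads to the complex ISGF3, which binds an interferon-stimulated response element (ISRE) in the promoters of its targets. The products of those targets sense viral nucleic acid, block viral RNA and protein synthesis, degrade RNA, starve viruses of nucleotides, or tune the signal itself, and many of them are also expressed at a low, tonic level in unstimulated macrophages. The 46 genes were sorted by role into 4 RNA and DNA sensors, 3 genes of signalling and transcription, 3 of ISG15 and its conjugation, 4 IFIT proteins, 5 of the OAS family, 2 Mx GTPases, 6 GBP and IRG GTPases, 4 of the PYHIN family, 4 of nucleotide metabolism and translation, 2 membrane effectors, 8 other effectors and 1 chemokine.

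What the promoters of these genes share was read from RefSeq sequence of build GRCm38.p6, in a window from 250 bases before to 50 bases after each start site. A window was found for 36 of the 46 genes. The ISRE core was written as GAAANNGAAA, searched on both strands, with overlapping matches counted, and it was present in the windows of 23 of the 36 genes (63.9%), against 1079 of 27025 genes with a window (3.99%). The interferon-gamma activated site (GAS), searched as TTCNNNGAA, which reads the same on both strands, was in 9 of the 36 (25.0%) and in 2582 of the 27025 (9.55%). Stretches from 6 of these promoters are shown because their genes took different courses below: Isg15 and Ifit1 as textbook ISRE genes, Oas3 and Ifi205 as genes that fell from pre-RPMs to RPMs, Rsad2 as the gene that rose, and Gbp3 as one that was higher in RPMs than in monocytes. Capitals mark the ISRE core, which appears as TTTC repeats where the match lies on the opposite strand, and each stretch is written 5′ to 3′ on the strand of its gene.
Isg15 (chr4:156200855-156200916, minus strand): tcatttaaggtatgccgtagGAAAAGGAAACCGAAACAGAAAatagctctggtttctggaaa
Ifit1 (chr19:34640765-34640833, plus strand): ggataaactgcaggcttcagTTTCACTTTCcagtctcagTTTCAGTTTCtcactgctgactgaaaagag
Oas3 (chr5:120777705-120777754, minus strand): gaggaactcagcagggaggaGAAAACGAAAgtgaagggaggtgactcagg
Ifi205 (chr1:174031860-174031909, minus strand): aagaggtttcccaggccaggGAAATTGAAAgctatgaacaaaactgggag
Rsad2 (chr12:26456543-26456592, minus strand): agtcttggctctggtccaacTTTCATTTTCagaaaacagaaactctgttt
Gbp3 (chr3:142559979-142560034, plus strand): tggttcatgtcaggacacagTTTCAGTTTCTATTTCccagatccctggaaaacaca
Isg15 held 3 overlapping matches and Ifit1 held 2 separate ones. Among the 12 matched genes that fell from pre-RPMs to RPMs in either genotype the core was in 5, and among the 24 other matched genes it was in 18. The 10 members without a window were Ifi27l2a, Dhx58, Mx1, Mx2, Oas2, Usp18, Zbp1, Rtp4, Ifi204 and Parp14. All of these but Parp14 fell at that step in WT mice. The promoters of many genes that fell were therefore not searched, and the 5 of 12 does not describe all that fell. Oas3 and Rsad2, which moved in opposite directions, had 1 match each, and Ifi205 had 2, of which the stretch above shows 1.

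Many of the 46 genes lie in clusters. The 4 PYHIN genes Ifi207, Ifi204, Ifi203 and Ifi205 sit on chromosome 1 between positions 173723427 and 174031810 of GRCm38, and the 4 IFIT genes on chromosome 19 between 34550694 and 34650009. Rsad2 and Cmpk2 are neighbours on chromosome 12 that are transcribed from opposite strands with 12751 bases between their gene bodies. Reads of some members cannot be separated cleanly from a relative or an overlapping gene: Ifit3 from Ifit3b, Oas1a from Oas1g, Ifi203 from Mndal, Ifi204 and Ifi205 from Ifi211, Igtp from Irgm2, and Irf9 from Rnf31 on the same strand. Herc6, Gbp7 and Rtp4 also share sequence with the overlapping genes Gm45193, Gm43802 and Gm45338. Values of these genes are uncertain to that degree.

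The libraries held 3562367 to 6559454 counts assigned to genes (median 4728764), of which the single gene Gm42418, which overlaps ribosomal RNA sequence, took 24.4% to 38.8%. Levels are given as CPM, counts brought to a common library size after scaling by the trimmed mean of M values (TMM), listed in the order of mice 1 to 4, and 3 counts corresponded to 0.457 to 0.842 CPM before that scaling. Il1rl1 itself, the gene disrupted in the mutant mice, had 28, 19, 12, and 13 counts in WT monocytes and 51, 73, 71, and 64 in the monocytes labelled Il1rl1-/-, 18, 15, 13, and 24 against 50, 76, 42, and 65 in pre-RPMs, and 5, 9, 7, and 13 against 1, 7, 3, and 6 in RPMs. In monocytes and pre-RPMs the Il1rl1 counts therefore ran against the labels, with log2 differences of 2.13 (adjusted p = 0.00882) and 1.52 (adjusted p = 0.00107). Where in the gene the counted reads fell cannot be read from gene totals, so that genotype directions below rest on the labels. Defining markers matched the names of the cell types in part: 10 red pulp macrophage markers summed to 6462 to 9005 CPM in RPMs and at most 306 CPM elsewhere. The monocyte libraries also carried NK cell markers, whose 9 genes summed to 1701, 1970, 616, and 1112 CPM in WT and 1652, 1245, 550, and 857 CPM in Il1rl1-/- mice.

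Per kilobase of exon, the members covered a wide range of levels. Averaged over the 24 libraries, Ifitm3, a membrane protein that blocks viral entry, stood highest at 133 CPM per kilobase, before Ifi27l2a at 74.2 and the dNTP hydrolase Samhd1 at 49.7. Irf7, the transcription factor that amplifies interferon production, followed at 16.7, the ADP-ribosyltransferase Parp14 at 14.1 and the antiviral enzyme Rsad2 (viperin) at 13.6, whereas the chemokine Cxcl10 was lowest at 0.845. Every member had counts in each of the 6 groups.

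Pre-RPMs had the highest mean level of 38 of the 46 genes in WT mice and of 36 in Il1rl1-/- mice. The 8 exceptions in WT were Ifih1, Herc6, Gbp3, Igtp, Ifi207 and Rsad2, which were highest in RPMs, and Gbp2 and Gbp7, which were highest in monocytes. The mean log2 CPM (prior count of 2) over the 46 genes was 4.54, 4.68, 4.82, and 4.88 in the WT pre-RPM libraries, above 3.34, 3.32, 4.31, and 4.26 in WT monocytes and 3.40, 3.65, 3.85, and 3.67 in WT RPMs. The same mean in Il1rl1-/- mice was 4.63, 4.57, 5.08, and 4.92 in pre-RPMs, 3.56, 3.76, 4.53, and 4.39 in monocytes and 3.60, 3.47, 4.10, and 4.05 in RPMs. No pre-RPM library overlapped a monocyte or RPM library of its genotype on this measure, and within monocytes the libraries of mice 3 and 4 were higher than those of mice 1 and 2 in both genotypes. In bulk samples, fewer cells of a type and less RNA per cell cannot be told apart.

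**Figure D1:**
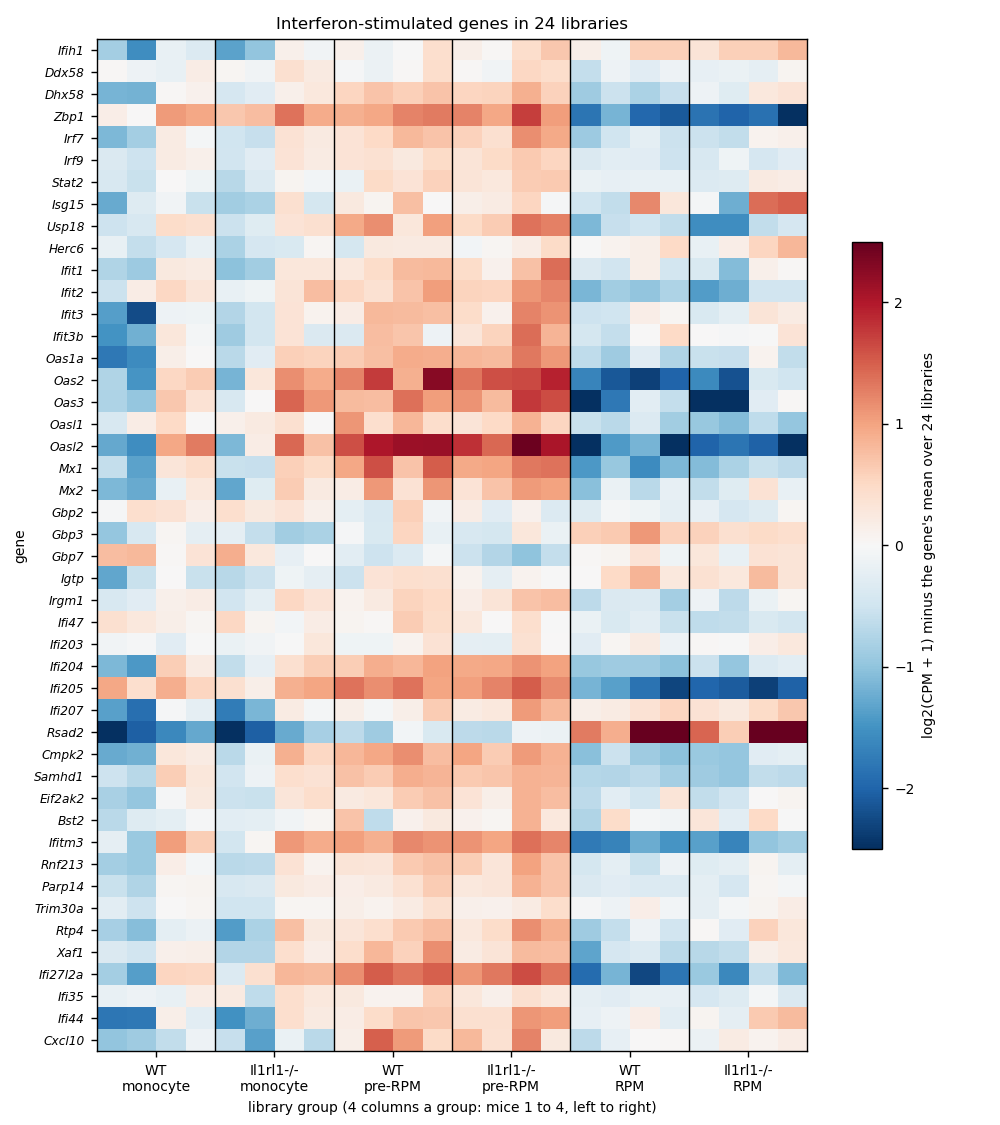
Level of each of the 46 genes (rows, ordered by role) in each of the 24 libraries (columns, 4 mice for each genotype and cell type), drawn as log2(CPM + 1) minus the gene's mean over all libraries, with colours that saturate at the ends of the scale. Most rows are highest in the pre-RPM columns, while Rsad2 is highest in RPMs, most of all in the libraries of mice 3 and 4.

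The step from pre-RPMs to RPMs was tested with the quasi-likelihood F test of edgeR (p-values adjusted after Benjamini and Hochberg), and a gene counted as called when it changed more than 2-fold in either direction with an adjusted p under 0.01. In WT mice 21 of the 45 members tested fell and 1 rose, where 10.7% of all 11239 genes tested fell and 14.0% rose. In Il1rl1-/- mice 18 of 46 fell and 1 rose, against 11.5% and 14.5% of all genes. The median log2 change was −0.98 in WT and −0.87 in Il1rl1-/- mice, where the median over all genes tested was close to 0. The calls of the 2 genotypes shared 19 genes, all of those called in Il1rl1-/- mice and 86.4% of those called in WT. The 3 genes called in WT alone, Dhx58, Rtp4 and Xaf1, are taken up with the genotype difference of this step. Members with few reads in RPMs, such as Oasl2 and Ifi205, entered the test through their pre-RPM level, so these counts describe the genes and are no test of the set. Markers of other cells fell at the same step. All 7 classical monocyte markers fell in WT and 6 of 7 in Il1rl1-/- mice, from sums of 1757 to 2941 CPM in pre-RPMs to 33.5 to 86.7 CPM in RPMs. All 7 neutrophil markers tested fell in both genotypes, from sums of 182 to 417 CPM to 1.75 to 19.96 CPM. The part of these cells in the changes of the members was not tested.

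The OAS family, enzymes activated by double-stranded RNA and their relatives, had 5 of 5 members that fell in both genotypes. Oas2, an enzyme that makes the 2-5A activator of RNase L, was at 23.7, 34.4, 18.4, and 49.7 CPM in WT pre-RPMs and at 2.33, 1.43, 1.07, and 1.62 CPM in WT RPMs, a log2 change of −4.29 (SE 0.36, adjusted p = 2.33e-07). Oas2 in Il1rl1-/- mice was at 25.5, 30.9, 31.8, and 39 CPM in pre-RPMs and 2.47, 1.31, 7.02, and 6.39 CPM in RPMs, a log2 change of −2.99 (SE 0.31, adjusted p = 7.26e-07). No RPM library reached the lowest pre-RPM library of its genotype. Oasl2, a relative that carries ubiquitin-like domains, was at 22.1, 29.6, 32.6, and 32.6 CPM in WT pre-RPMs and 0.212, 1.83, 2.4, and 0.231 CPM in WT RPMs, and at 25.8, 19.5, 40.5, and 30.01 (pre-RPMs) and 0.897, 1.14, 0.877, and 0.213 CPM (RPMs) in Il1rl1-/- mice. In RPMs it was near the limit of detection, and its log2 changes were −4.70 (SE 0.36, adjusted p = 8.32e-08) in WT and −5.16 (SE 0.32, adjusted p = 2.42e-09) in Il1rl1-/- mice. Oas3, which prefers long double-stranded RNA, had 29.1, 28.9, 44.1, and 35.2 CPM in WT pre-RPMs and 1.91, 4.07, 13.6, and 10.6 CPM in WT RPMs, with 37.1, 29.3, 58.9, and 53.1 (pre-RPMs) and 1.79, 1.8, 13.4, and 16.8 CPM (RPMs) in Il1rl1-/- mice. Its log2 changes were −2.28 (SE 0.36, adjusted p = 0.00011) and −2.48 (SE 0.45, adjusted p = 0.000255), and in RPMs of both genotypes it was lower in mice 1 and 2 than in mice 3 and 4. The remaining members, Oas1a and Oasl1, fell by 1.46 to 1.72 on the log2 scale over both genotypes.

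Both Mx GTPases fell in both genotypes. Mx1 went from 35.8, 56.2, 29.9, and 52.8 CPM to 5.93, 8.76, 5.34, and 7.62 CPM in WT and from 35.5, 36.3, 46.1, and 47 CPM to 7.85, 9.81, 11.8, and 10.9 CPM in Il1rl1-/- mice, log2 changes of −2.69 (SE 0.23, adjusted p = 2.49e-07) and −2.08 (SE 0.15, adjusted p = 9.26e-09). Mx2 went from 14.9, 28.6, 16.9, and 29 CPM to 5.72, 11.4, 7.75, and 11.1 CPM in WT and from 16.5, 21.9, 28.3, and 27 CPM to 8.07, 10.3, 16.9, and 11.3 CPM in Il1rl1-/- mice, log2 changes of −1.35 (SE 0.26, adjusted p = 0.000621) and −1.06 (SE 0.21, adjusted p = 0.000526). The groups did not overlap except for Mx2 in Il1rl1-/- mice, where the RPMs of mouse 3 lay just above the pre-RPMs of mouse 1. The Mx2 call in Il1rl1-/- mice was lost in 4 of 8 leave-one-out fits, those without pre-RPM library 3 or 4 or RPM library 1 or 2, where its log2 change was as small as −0.93.

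Among the 4 sensors, Zbp1 alone fell in both genotypes. Zbp1, which detects Z-form nucleic acid and can start necroptosis, had 23.5, 24.9, 30.1, and 31.4 CPM in WT pre-RPMs and 2.75, 4.89, 2.4, and 2.08 CPM in WT RPMs, with 30.3, 24.8, 43.1, and 26.3 (pre-RPMs) and 2.69, 2.29, 2.63, and 1.28 CPM (RPMs) in Il1rl1-/- mice. Every RPM library was below every pre-RPM library, and its log2 changes were −3.19 (SE 0.22, adjusted p = 3.13e-08) in WT and −3.83 (SE 0.24, adjusted p = 2.3e-09) in Il1rl1-/- mice. Of the RIG-I-like helicases, which sense viral RNA in the cytosol, only Dhx58 was called, and that in WT. Ifih1 (MDA5) was at 39.3, 32.3, 35.3, and 48.1 CPM in WT pre-RPMs and 39.8, 33.2, 54.2, and 54.7 CPM in WT RPMs, and at 39.5, 36.5, 48.8, and 58 (pre-RPMs) and 44.8, 54.3, 54.2, and 63.5 CPM (RPMs) in Il1rl1-/- mice, with overlapping groups and log2 changes of 0.18 (SE 0.17, adjusted p = 0.408) and 0.19 (SE 0.14, adjusted p = 0.274). Ddx58 (RIG-I) was at 32.3, 29.6, 33.6, and 45.4 (pre-RPMs) and 21.6, 30.1, 27, and 30.3 CPM (RPMs) in WT, and at 33.6, 30.9, 47.9, and 45.3 (pre-RPMs) and 28.5, 29.3, 28.1, and 34.7 CPM (RPMs) in Il1rl1-/- mice, with log2 changes of −0.42 (SE 0.15, adjusted p = 0.0338) and −0.43 (SE 0.14, adjusted p = 0.0164). Neither of these met both criteria.

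Of the 3 genes of signalling and transcription, Irf7 fell. It was at 73.2, 81.3, 101, and 94.4 CPM in WT pre-RPMs and 30.3, 40.3, 48.1, and 39.3 CPM in WT RPMs, log2 change −1.20 (SE 0.15, adjusted p = 9.16e-06), and at 85.8, 76, 130.0, and 111 (pre-RPMs) and 39.2, 37.1, 61.2, and 62.4 CPM (RPMs) in Il1rl1-/- mice, log2 change −1.06 (SE 0.19, adjusted p = 0.00023). Stat2, a subunit of ISGF3, was at 38.8, 61.4, 55.6, and 66.1 (pre-RPMs) and 39, 37.7, 38.2, and 38.6 CPM (RPMs) in WT and at 55.1, 52.4, 68.1, and 69.1 (pre-RPMs) and 34.5, 34.7, 51.1, and 49.8 CPM (RPMs) in Il1rl1-/- mice, with log2 changes of −0.58 (SE 0.14, adjusted p = 0.00405) and −0.58 (SE 0.15, adjusted p = 0.00361) that were below the fold limit. Irf9, the DNA-binding subunit of ISGF3, had log2 changes of −0.78 and −0.86, also below that limit. Usp18, which removes ISG15 from proteins and restrains the receptor, was at 14.9, 17.3, 9.06, and 15.7 CPM in WT pre-RPMs and 2.75, 4.48, 4.81, and 4.39 CPM in WT RPMs, log2 change −1.84 (SE 0.25, adjusted p = 2.46e-05). Usp18 in Il1rl1-/- mice was at 10.4, 11.7, 19.9, and 18.6 (pre-RPMs) and 1.79, 1.8, 4.38, and 5.11 CPM (RPMs), log2 change −2.27 (SE 0.32, adjusted p = 2.13e-05). The Irf7 call in Il1rl1-/- mice was lost in 3 of 8 leave-one-out fits, those without pre-RPM library 3 or RPM library 1 or 2. In both Irf7 and Usp18 the RPM libraries were all below the pre-RPM libraries of their genotype. Herc6, the ligase that attaches ISG15 in mice, was at 12.8, 21.3, 20.8, and 20.9 (pre-RPMs) and 17.6, 18.9, 19.8, and 25.6 CPM (RPMs) in WT and at 17, 18.5, 20.2, and 25.3 (pre-RPMs) and 15.5, 19.9, 26.3, and 32.4 CPM (RPMs) in Il1rl1-/- mice, groups that overlapped, with log2 changes of 0.07 (SE 0.18, adjusted p = 0.783) and 0.15 (SE 0.20, adjusted p = 0.542). Isg15 itself, the ubiquitin-like modifier, was not called in either genotype, and its RPM levels were 2.54, 2.24, 10.4, and 5.08 CPM in WT and 3.81, 1.14, 12.1, and 13 CPM in Il1rl1-/- mice.

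Ifit2, an RNA-binding inhibitor of translation, fell from 15.3, 13.9, 17.9, and 22.6 CPM to 4.24, 5.29, 4.81, and 5.77 CPM in WT and from 15.8, 15.8, 23.8, and 25.9 CPM to 3.36, 3.92, 7.23, and 7.24 CPM in Il1rl1-/- mice, log2 changes of −1.84 (SE 0.20, adjusted p = 2.84e-06) and −1.96 (SE 0.25, adjusted p = 8.02e-06). None of these Ifit2 groups overlapped. Ifit1, which binds viral RNA that lacks the methyl marks of host caps, was also called, with log2 changes of −1.14 and −1.34, but each genotype lost this call in 5 of its 8 leave-one-out fits. Ifit3, another protein of this family, was at 6.51, 10.5, 10.3, and 9.99 CPM in WT pre-RPMs and 3.6, 3.67, 6.41, and 5.77 CPM in WT RPMs, and at 8.04, 6.11, 14.6, and 13.2 (pre-RPMs) and 4.04, 4.58, 7.23, and 6.6 CPM (RPMs) in Il1rl1-/- mice. Its log2 changes of −0.999 (SE 0.25, adjusted p = 0.00421) and −0.94 (SE 0.29, adjusted p = 0.0124) did not meet both criteria.

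In the PYHIN family, whose proteins bind DNA and act in inflammasomes and transcription, 2 of 4 members fell in both genotypes. Ifi205 was at 20.5, 17.6, 20.3, and 15.5 CPM in WT pre-RPMs and 2.75, 2.24, 1.34, and 0.693 CPM in WT RPMs, log2 change −3.39 (SE 0.27, adjusted p = 1.36e-07). In Il1rl1-/- mice it was at 16.1, 18.7, 22.9, and 18.1 (pre-RPMs) and 1.12, 0.981, 0.658, and 1.07 CPM (RPMs), log2 change −4.32 (SE 0.23, adjusted p = 3.55e-10). The RPM libraries of Ifi205 were all below 3 CPM. Ifi204, the other gene that fell, changed by −1.93 and −1.64. The other 2 PYHIN genes were not called. Ifi203 was at 57.9, 57.7, 65.9, and 80.6 CPM in WT pre-RPMs and 51.3, 64.8, 71.6, and 56.8 CPM in WT RPMs, with 52.9, 52.6, 81.2, and 62.4 (pre-RPMs) and 63.2, 61.8, 69.9, and 74.8 CPM (RPMs) in Il1rl1-/- mice, log2 changes of −0.15 (SE 0.14, adjusted p = 0.392) and 0.07 (SE 0.13, adjusted p = 0.695). Ifi207 was at 39.8, 34.9, 40.2, and 56.1 (pre-RPMs) and 40.04, 41.7, 46.7, and 53.1 CPM (RPMs) in WT and 41.8, 43.4, 76.4, and 63.6 (pre-RPMs) and 46.4, 43.2, 50.6, and 57.9 CPM (RPMs) in Il1rl1-/- mice, log2 changes of 0.04 (SE 0.15, adjusted p = 0.852) and −0.23 (SE 0.17, adjusted p = 0.266).

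Of the 2 membrane effectors 1 fell in both genotypes. Ifitm3 was at 140.4, 127, 159, and 150.1 CPM in WT pre-RPMs and 19.5, 20.8, 28.6, and 24 CPM in WT RPMs, log2 change −2.69 (SE 0.14, adjusted p = 1.28e-09). In Il1rl1-/- mice it was at 151, 137, 179, and 160.5 (pre-RPMs) and 26.2, 21.1, 34, and 36.8 CPM (RPMs), log2 change −2.47 (SE 0.16, adjusted p = 2.37e-09), and every pre-RPM library was above every RPM library. Bst2 (tetherin), which holds budding virions on the cell surface, was at 11.6, 3.94, 7.35, and 8.09 (pre-RPMs) and 3.6, 9.57, 6.41, and 6.23 CPM (RPMs) in WT and at 7.33, 6.95, 13.1, and 8.2 (pre-RPMs) and 8.52, 5.39, 9.87, and 6.6 CPM (RPMs) in Il1rl1-/- mice, overlapping groups with log2 changes of −0.31 (SE 0.32, adjusted p = 0.446) and −0.26 (SE 0.25, adjusted p = 0.387). Samhd1, which depletes the dNTPs that viruses need, fell from 674, 631, 767, and 733 CPM to 249, 244, 259.6, and 227 CPM in WT and from 644, 661, 741, and 732 CPM to 218, 209, 267, and 257 CPM in Il1rl1-/- mice, log2 changes of −1.56 (SE 0.12, adjusted p = 1.11e-07) and −1.60 (SE 0.11, adjusted p = 6.71e-09).

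The 8 other effectors had 3 members called in WT (Ifi27l2a, Xaf1 and Rtp4, chosen after their values were seen) and Ifi27l2a alone in Il1rl1-/- mice. Rnf213, a very large ubiquitin ligase, was at 255, 249.8, 319.7, and 339 CPM in WT pre-RPMs and 151, 172, 138, and 185 CPM in WT RPMs, and at 311, 252, 407, and 334 (pre-RPMs) and 164, 173, 214, and 172 CPM (RPMs) in Il1rl1-/- mice. Its groups did not overlap and its log2 changes were −0.89 (SE 0.14, adjusted p = 0.000101) and −0.90 (SE 0.14, adjusted p = 4.43e-05), within the fold limit. Parp14 was at 141, 147, 164, and 196 (pre-RPMs) and 98.5, 103, 99.4, and 98.8 CPM (RPMs) in WT and 151, 155, 231, and 208 (pre-RPMs) and 106, 94.5, 131, and 121 CPM (RPMs) in Il1rl1-/- mice, with log2 changes of −0.75 (SE 0.12, adjusted p = 0.000126) and −0.77 (SE 0.15, adjusted p = 0.000336). Both had adjusted p-values under 0.01 with changes smaller than the fold limit. Cxcl10, a chemokine for activated T cells, was scarce, at 1.86, 6.3, 4.41, and 2.62 CPM in WT pre-RPMs and 0.636, 1.22, 1.6, and 1.62 CPM in WT RPMs, where it did not pass the filter on low counts. Cxcl10 in Il1rl1-/- mice was at 3.55, 2.37, 5.06, and 2.05 (pre-RPMs) and 1.35, 1.96, 1.75, and 1.92 CPM (RPMs), a log2 change of −0.87 (SE 0.34, adjusted p = 0.0439).

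None of the 6 GBP and IRG GTPases, which attack the vacuoles of intracellular microbes and also respond strongly to interferon-gamma, was called in either genotype, and their median log2 change was −0.04 in WT and 0.12 in Il1rl1-/- mice. Gbp3 was at 17, 13.1, 25.7, and 15.2 CPM in WT pre-RPMs and 26.7, 27.9, 37.9, and 26.3 CPM in WT RPMs, and at 13, 12.6, 21.4, and 15.3 (pre-RPMs) and 26.5, 23.2, 24.8, and 23.4 CPM (RPMs) in Il1rl1-/- mice. Its RPM libraries were all above the pre-RPM libraries of the same genotype, with log2 changes of 0.69 (SE 0.19, adjusted p = 0.00835) and 0.62 (SE 0.15, adjusted p = 0.00294). Irgm1, a regulator of autophagy and of the other IRG proteins, was lower in RPMs, at 24.4, 27, 34.1, and 33.1 (pre-RPMs) and 14.2, 17.7, 17.9, and 12.2 CPM (RPMs) in WT and 26, 28.8, 38.1, and 40.1 (pre-RPMs) and 21.1, 14.2, 20.4, and 23.9 CPM (RPMs) in Il1rl1-/- mice, log2 changes of −0.98 (SE 0.16, adjusted p = 0.000125) and −0.80 (SE 0.17, adjusted p = 0.000879). Neither change passed the fold limit. An ISRE core was in the promoter windows of 5 of these 6 genes. Among members called in neither genotype and not given in each library, namely Irf9, Isg15, Ifit3b, Gbp2, Gbp7, Igtp, Ifi47, the translation-blocking kinase Eif2ak2 (PKR), Trim30a, Ifi35 and Ifi44, the log2 changes ranged from −0.96 (Ifit3b) to 0.91 (Gbp7), both in Il1rl1-/- mice.

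**Figure D2:**
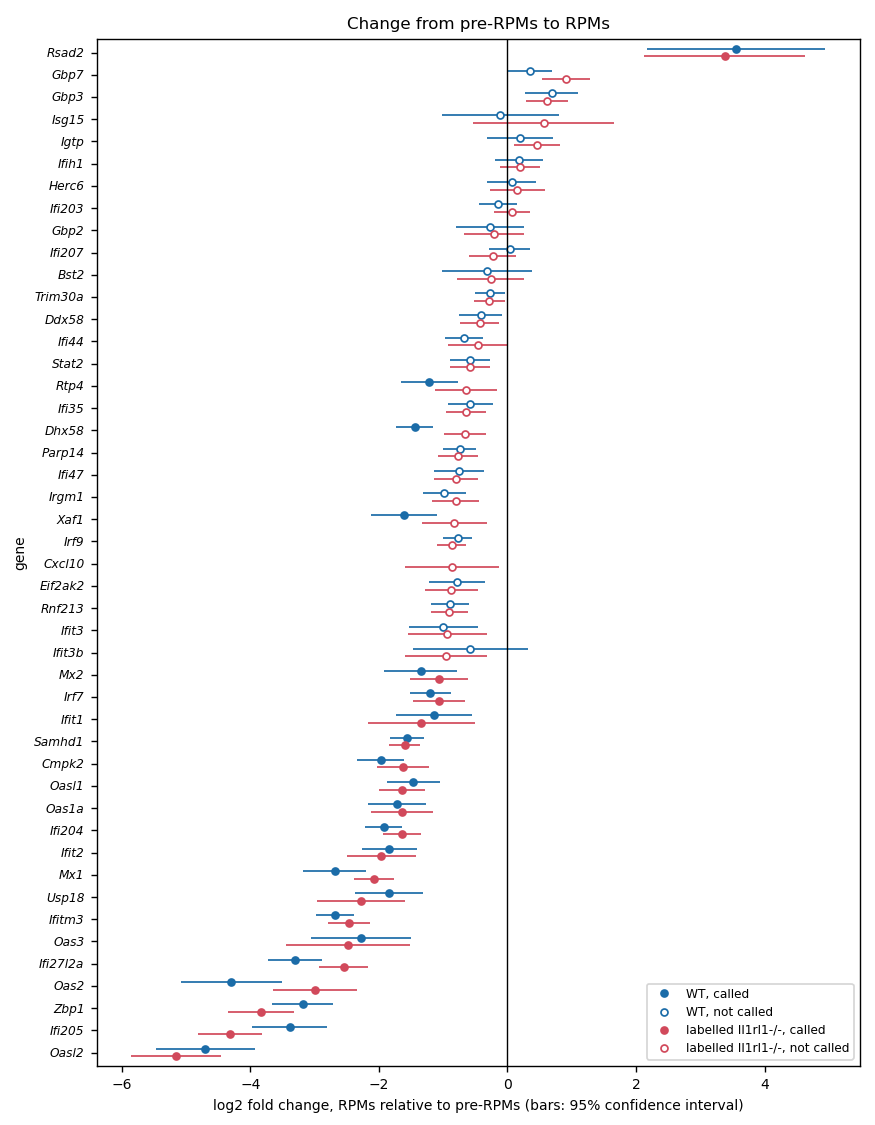
Log2 fold change of each of the 46 genes between pre-RPMs and RPMs, ordered by the Il1rl1-/- change, in WT (blue) and in mice labelled Il1rl1-/- (red), with 95% confidence intervals as bars and filled points for called genes. All 5 OAS genes and both Mx genes lie left of 0 in both genotypes, Rsad2 lies far to the right (3.55 and 3.38), and Cxcl10 has no WT point because it was not tested there.

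Rsad2 was the only member that rose from pre-RPMs to RPMs. It encodes viperin, which converts CTP into a chain terminator of viral RNA synthesis. WT pre-RPMs had 11.6, 9.71, 17.9, and 14.3 CPM and WT RPMs 47.7, 36.2, 407, and 162 CPM, a log2 change of 3.55 (SE 0.65, adjusted p = 0.000362). The Il1rl1-/- levels of Rsad2 were 11.6, 11.4, 17.3, and 17 CPM and 53.4, 29.4, 219, and 311 CPM, a log2 change of 3.38 (SE 0.59, adjusted p = 0.00017). Every RPM library was above every pre-RPM library, but within RPMs the libraries of mice 3 and 4 were well above those of mice 1 and 2 in both genotypes. Without WT RPM library 3 the log2 change was 2.56, and without Il1rl1-/- RPM library 4 it was 2.77. With the RPM libraries of mice 1 and 2 alone, a choice made after seeing the data, it was 1.59 in WT (adjusted p = 7.43e-06) and 1.47 in Il1rl1-/- mice (adjusted p = 3.26e-05).

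The RPM libraries differed in erythroid RNA in the same order. The 8 erythroid markers, all of which were detected and rose from pre-RPMs to RPMs in both genotypes, summed to 1896, 1275, 22130, and 9291 CPM in WT RPMs and 2621, 849, 10505, and 14321 CPM in Il1rl1-/- RPMs, and to 13.1 to 566 CPM in pre-RPMs. Ranking the 8 RPM libraries by Rsad2 gave exactly the order of that sum, which held for 1 of the 46 members and for 30 of 12842 genes (0.234%). RPMs engulf red blood cells as their normal function, and the part of erythroid RNA in the Rsad2 level was not tested. Cmpk2, the mitochondrial nucleotide kinase next to Rsad2, was at 23.5, 26, 29.6, and 22.4 CPM in WT pre-RPMs and 5.72, 8.55, 6.41, and 5.77 CPM in WT RPMs, and at 26.2, 20.5, 27.7, and 24.2 (pre-RPMs) and 6.28, 6.05, 10.3, and 10.7 CPM (RPMs) in Il1rl1-/- mice. It fell, with log2 changes of −1.97 (SE 0.17, adjusted p = 2.59e-07) and −1.62 (SE 0.19, adjusted p = 2.69e-06), so that the 2 neighbours moved in opposite directions. In monocytes Cmpk2 was at 4.74, 4.99, 15.8, and 15 CPM in WT and 7.63, 11.4, 24.5, and 18.7 CPM in Il1rl1-/- mice. Cmpk2 was described because of its position, after its values were seen.

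**Figure D3:**
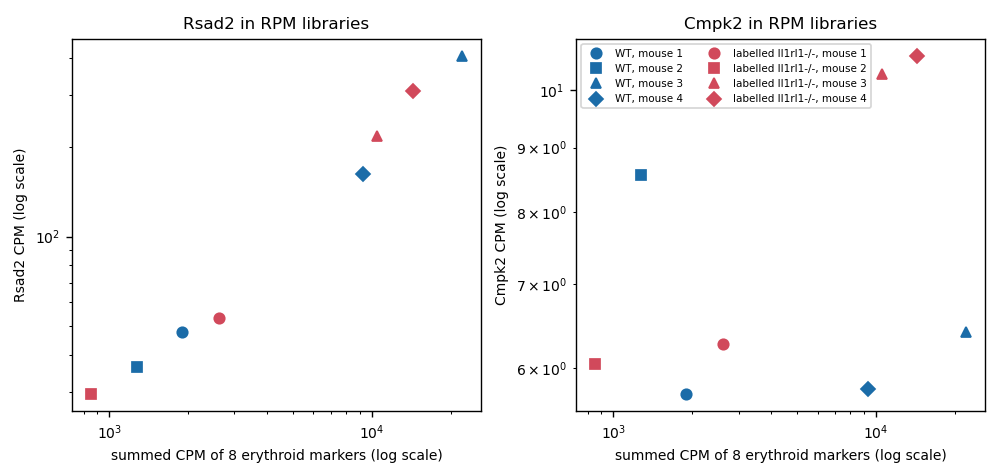
Rsad2 (left) and Cmpk2 (right) in the 8 RPM libraries, as CPM on a log axis, against the summed CPM of 8 erythroid markers on a log axis; colours stand for the genotype labels and symbols for mice 1 to 4. Rsad2 spans 29.4 to 407 CPM in the same order as the marker sum, and Cmpk2 does not follow that order.

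From monocytes to pre-RPMs no member met both criteria in either genotype with edgeR (7 did in WT and 3 in Il1rl1-/- mice with DESeq2), where 0.316% of all genes rose and 3.25% fell in WT and 0.974% rose and 3.88% fell in Il1rl1-/- mice. The levels nevertheless lay mostly on one side: 43 of 45 tested members had a positive log2 change in WT and 42 of 46 in Il1rl1-/- mice, with medians of 0.84 and 0.68 where the median over all genes was close to 0. At an adjusted p under 0.05 with no minimum fold, 13 members were higher and 1 was lower in WT pre-RPMs (all genes, 5.79% and 8.85%). In Il1rl1-/- mice 20 were higher and 1 was lower (all genes, 8.24% and 8.83%). At an unadjusted p under 0.05, 35 members were higher and 1 was lower in WT (all genes, 15.6% and 16.3%), and 34 were higher and 1 was lower in Il1rl1-/- mice (all genes, 16.0% and 14.6%). The member that was lower in both was Gbp7, named here after its values were seen, at 26, 26.6, 15.1, and 19 CPM in WT monocytes and 12.1, 9.97, 11.5, and 14.3 CPM in WT pre-RPMs. With the mouse as a block, which the shared animal allows, 5 members were called in WT and 12 in Il1rl1-/- mice. The shares of all genes in this paragraph are those of the edgeR fit without a block and with all libraries. They do not apply to the counts from DESeq2, the block or the fits that left out a library. Leaving out WT monocyte library 3 gave 14 calls and library 4 gave 1, and leaving out Il1rl1-/- monocyte library 3 gave 11 and library 4 gave 3.

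In many members the monocyte libraries of mice 3 and 4 lay closer to pre-RPMs than those of mice 1 and 2. Oas2 was at 5.2, 2.8, 14, and 15.3 CPM in WT and 3.69, 11.8, 22.6, and 18.9 CPM in Il1rl1-/- mice in monocytes, with log2 changes to pre-RPMs of 1.76 (SE 0.45, adjusted p = 0.0259) and 1.15 (SE 0.34, adjusted p = 0.0386). Oas3 was at 9.18, 7.99, 26.8, and 21.6 CPM in WT and 12.3, 16.6, 46.9, and 35.8 CPM in Il1rl1-/- mice. Oasl2 was at 2.14, 1.6, 13.8, and 17.5 CPM in WT and 2.46, 7.57, 19.6, and 11.5 CPM in Il1rl1-/- mice. In all 3 OAS genes the libraries of mice 1 and 2 were the lowest. Mx1 had 11.5, 6.39, 22, and 24.6 CPM in WT and 11.8, 11.6, 27.3, and 25.1 CPM in Il1rl1-/- mice, with log2 changes of 1.43 (SE 0.35, adjusted p = 0.0222) and 1.12 (SE 0.25, adjusted p = 0.0111). Mx2 had 5.35, 4.79, 11.2, and 15.7 CPM in WT and 4.68, 10.3, 20.7, and 15.2 CPM in Il1rl1-/- mice. Irf7, which drives further interferon production, had 25.7, 31.4, 66.1, and 55.7 CPM in WT and 40.4, 38.3, 74, and 66.9 CPM in Il1rl1-/- mice, with log2 changes of 0.97 (SE 0.26, adjusted p = 0.0321) and 0.88 (SE 0.22, adjusted p = 0.0205). No monocyte library of Irf7 reached the pre-RPM range of its genotype. Rsad2 had 0.459, 3.8, 5.5, and 7.19 CPM in WT and 1.97, 3.78, 7.32, and 10.1 CPM in Il1rl1-/- mice, with log2 changes of 1.66 (SE 0.47, adjusted p = 0.0391) and 1.28 (SE 0.35, adjusted p = 0.0286). Ifit3 had 1.53, 0.40, 5.05, and 5.09 CPM in WT and 2.96, 3.78, 7.32, and 5.97 CPM in Il1rl1-/- mice, with log2 changes of 1.62 (SE 0.48, adjusted p = 0.0457) and 1.04 (SE 0.33, adjusted p = 0.0496).

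The same ordering appeared in abundant members of other roles. Samhd1 had 284, 252, 628, and 496 CPM in WT and 291, 375, 546, and 523 CPM in Il1rl1-/- mice in monocytes. Ifitm3 had 58.4, 35.6, 143, and 106 CPM in WT and 49.5, 71.1, 147, and 132 CPM in Il1rl1-/- mice. In both genes the libraries of mice 3 and 4 were above those of mice 1 and 2 in both genotypes. The ubiquitin ligase Rnf213 had 113, 106, 228, and 195 CPM in WT and 126, 129, 261, and 215 CPM in Il1rl1-/- mice, and the ADP-ribosyltransferase Parp14 85.7, 74.5, 131, and 132 CPM in WT and 95.1, 98, 150.0, and 145 CPM in Il1rl1-/- mice. The DNA-binding protein Ifi207 had 13.5, 8.99, 35.3, and 30.6 CPM in WT and 10.1, 15.8, 41.5, and 35 CPM in Il1rl1-/- mice, and the RNA sensor Ifih1 19.4, 11.6, 31.2, and 27.9 CPM in WT and 13.5, 17.4, 39, and 33.7 CPM in Il1rl1-/- mice. Zbp1 was at 13.8, 12.4, 26.8, and 24.7 CPM in WT and 20.2, 21.4, 32.9, and 24.1 CPM in Il1rl1-/- mice, and the deISGylase Usp18 at 4.74, 5.19, 10.3, and 9.89 CPM in WT and 4.68, 5.68, 9.47, and 9.87 CPM in Il1rl1-/- mice. The ISGF3 subunit Stat2 was at 32.9, 29.6, 44.3, and 40.6 CPM in WT and 26.8, 34.3, 45.8, and 41.6 CPM in Il1rl1-/- mice, the GTPase Irgm1 at 17.1, 18.8, 25.2, and 26.2 CPM in WT and 16.3, 19.3, 33.4, and 29.2 CPM in Il1rl1-/- mice, and Ifit2 at 6.88, 12, 15.4, and 13.2 CPM in WT and 9.11, 9.67, 13.3, and 18.5 CPM in Il1rl1-/- mice. The scarce Bst2 was at 3.82, 5.19, 5.5, and 6.59 CPM in WT and 5.42, 5.47, 6.24, and 6.99 CPM in Il1rl1-/- mice.

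In WT the libraries of Ddx58, Ifi203, Ifi205 and Herc6 did not follow that ordering, and in Il1rl1-/- mice they did. The RNA sensor Ddx58 had 33.8, 30.2, 29.1, and 37.6 CPM in WT and 34.5, 31.1, 44.1, and 38.7 CPM in Il1rl1-/- mice in monocytes. Ifi203 was at 58.9, 60.9, 51.1, and 61.7 CPM in WT and 55.4, 58.2, 61.6, and 76.1 CPM in Il1rl1-/- mice. Ifi205, from the same cluster, had 15.3, 10.2, 14.7, and 11.1 CPM in WT and 10.1, 8.2, 14.4, and 15.6 CPM in Il1rl1-/- mice, and the ISG15 ligase Herc6 15.5, 11.4, 13.1, and 15.4 CPM in WT and 9.85, 13, 13.3, and 18.5 CPM in Il1rl1-/- mice. Some GBP and IRG GTPases ran the other way in monocytes, with mice 1 and 2 above mice 3 and 4. Gbp7 did so in both genotypes, at 28.8, 18.1, 12.7, and 14.8 CPM in Il1rl1-/- mice. Ifi47 did so in WT alone, at 18.1, 16.2, 14.9, and 13.8 CPM, and Gbp3 in Il1rl1-/- mice alone. Gbp3 followed the ordering in WT, Irgm1 and Igtp followed it in both genotypes, and Gbp2 followed neither order. The chemokine Cxcl10 was at the edge of detection, at 0.306, 0.40, 0.688, and 1.35 CPM in WT and 0.739, 0, 1.29, and 0.617 CPM in Il1rl1-/- mice.

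Markers of other cells moved with this step. Of the 9 NK cell markers 8 were tested and all 8 fell from monocytes to pre-RPMs in both genotypes, from sums of 550 to 1970 CPM to sums of 37.3 to 164 CPM, and Klra8 had no count in pre-RPMs. Neutrophil markers summed to 758 to 2463 CPM in monocytes and 182 to 417 CPM in pre-RPMs. Plasma cell markers summed to 416 to 590 CPM in WT monocytes and 334 to 1729 CPM in Il1rl1-/- monocytes. In pre-RPMs their sums were 111 to 166 CPM in WT and 42.3 to 342 CPM in Il1rl1-/- mice. The classical monocyte markers were lowest in the monocyte libraries with the most NK cell RNA, at 899, 596, 2354, and 1799 CPM in WT and 1044, 1521, 2873, and 2131 CPM in Il1rl1-/- mice. The mean log2 CPM over the members was lower in those libraries as well. The part of these other cells in the monocyte values was not tested. Using the monocyte libraries of mice 3 and 4 alone, a choice made after seeing the data, the median log2 change of the members from monocytes to pre-RPMs was 0.45 in WT and 0.34 in Il1rl1-/- mice, against 0.84 and 0.68 with all libraries. The 10 markers of plasmacytoid dendritic cells, a main source of interferon-alpha, summed to 105 to 153 CPM in monocytes and pre-RPMs and to 48.3 to 80.8 CPM in RPMs.

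**Figure D4:**
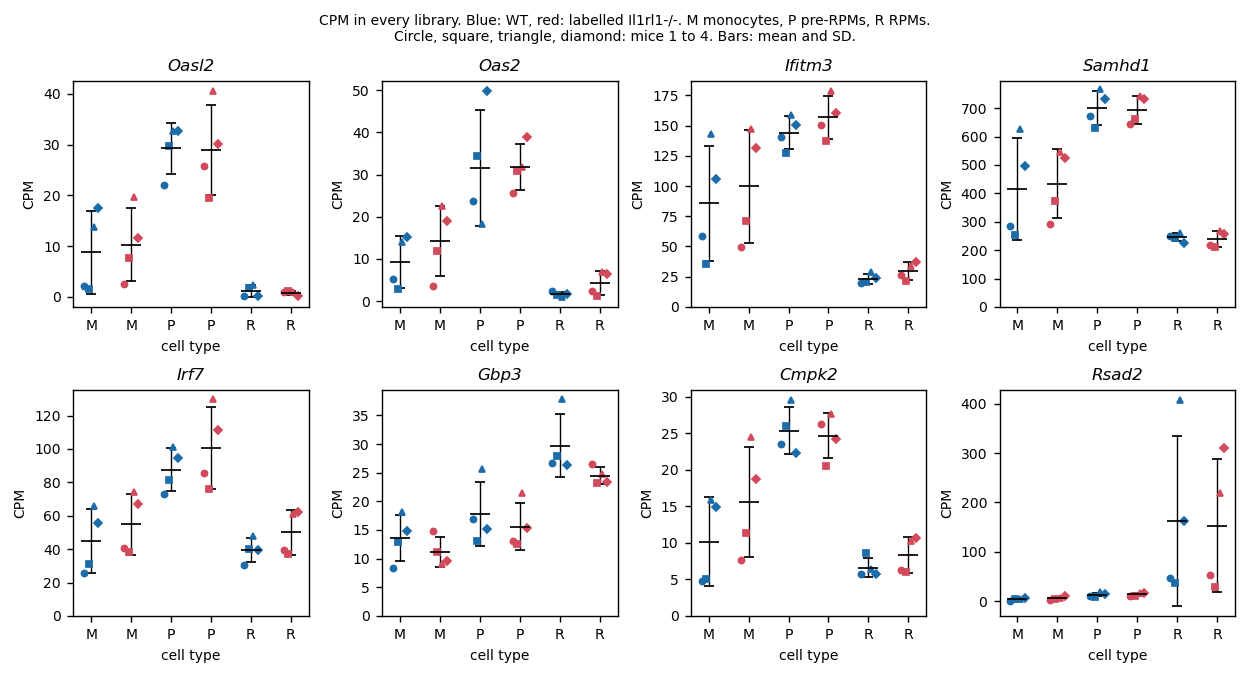
Level (CPM, linear axis from 0 or just below) of 8 members in the 4 libraries of each of the 6 groups; blue is WT, red is labelled Il1rl1-/-, points are libraries with a symbol for each mouse, and bars are group means and SD. Oasl2, Oas2, Ifitm3, Samhd1, Irf7 and Cmpk2 are highest in pre-RPMs, Gbp3 is highest in RPMs, and Rsad2 is highest in RPMs with a wide spread between mice.

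Across the whole path, from monocytes to RPMs, fewer members were called than in its last step. In WT mice 2 of 44 tested members rose and 6 fell (all genes, 13.4% and 10.5%), and in Il1rl1-/- mice 3 of 45 rose and 7 fell (all genes, 14.3% and 11.6%). The median log2 changes were −0.20 and −0.14. Zbp1 fell, with log2 changes of −2.66 (SE 0.35, adjusted p = 9.31e-05) in WT and −3.46 (SE 0.25, adjusted p = 2.34e-07) in Il1rl1-/- mice, and so did Ifi205, with −2.84 (SE 0.32, adjusted p = 3.19e-05) and −3.62 (SE 0.31, adjusted p = 1.17e-06). Ifitm3 fell, with −1.91 (SE 0.37, adjusted p = 0.00151) and −1.76 (SE 0.31, adjusted p = 0.000519), and Ifit2 with −1.24 (SE 0.26, adjusted p = 0.0023) and −1.23 (SE 0.30, adjusted p = 0.00491). Ifi27l2a also fell in both genotypes and Oasl1 in Il1rl1-/- mice. Oas2 was called in WT, with −2.52 (SE 0.56, adjusted p = 0.00347), and had −1.77 (SE 0.54, adjusted p = 0.0162) in Il1rl1-/- mice, while Oasl2 was tested only in Il1rl1-/- mice, with −3.64 (SE 0.62, adjusted p = 0.000361). Gbp3 rose by 1.12 (SE 0.22, adjusted p = 0.00171) and 1.14 (SE 0.16, adjusted p = 9.18e-05), from 8.41, 13, 18.1, and 14.8 CPM in WT and 14.8, 11.1, 9.04, and 9.67 CPM in Il1rl1-/- monocytes. Rsad2 rose by 5.25 (SE 0.88, adjusted p = 0.000574) and 4.70 (SE 0.75, adjusted p = 0.000217). Ifih1 was called in Il1rl1-/- mice, with 1.06 (SE 0.27, adjusted p = 0.00627), and had 0.99 (SE 0.28, adjusted p = 0.0126) in WT. Only 4 of the 8 WT calls and 8 of the 10 Il1rl1-/- calls remained in every fit that left out 1 library, and without WT RPM library 3 there were 5 calls in WT. The calls lost in some of those fits were Gbp3, Oas2, Ifi27l2a and Ifit2 in WT and Ifih1 and Ifit2 in Il1rl1-/- mice. With the mouse as a block 5 members rose and 6 fell in WT. With the monocyte libraries of mice 3 and 4 alone, a choice made after seeing the data, 13 members were called in WT and 17 in Il1rl1-/- mice. The shares of all genes above are those of the main fits and do not apply to the counts from these other fits.

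Between genotypes, no member was called at an adjusted p under 0.05 in any cell type with edgeR, and 0 were with DESeq2. In monocytes 0 of 44 tested members passed, where 0.0614% of all genes did, and none had an unadjusted p under 0.05 (all genes, 3.59%, with 1.88% higher in Il1rl1-/-). With same-numbered monocyte libraries as a block, 9 members had an unadjusted p under 0.05, all higher in the libraries labelled Il1rl1-/- (all genes higher, 3.67%), and 0 were called. The mean log2 CPM over the members, given above, was higher in the monocyte library labelled Il1rl1-/- in each of the 4 same-numbered pairs. In pre-RPMs 0 of 46 passed (all genes, 0.552%), with 2 at an unadjusted p under 0.05 (all genes, 8.80%). In RPMs 0 of 43 passed (all genes, 0.233%), with 8 at an unadjusted p under 0.05 (all genes, 7.27%), of which 7 were higher in the libraries labelled Il1rl1-/- (all genes higher, 3.20%). The median log2 difference, Il1rl1-/- minus WT, stood at 0.20 among monocytes, 0.08 among pre-RPMs and 0.17 among RPMs, and 36, 29 and 32 of the tested members had a positive difference (all genes, 48.9%, 49.5% and 49.7%). Leaving out 1 library moved these medians to between 0.04 and 0.40 in monocytes, −0.03 and 0.16 in pre-RPMs, where the sign turned without Il1rl1-/- library 3, Il1rl1-/- library 4 or WT library 1, and 0.08 and 0.27 in RPMs. The lowest monocyte median was without Il1rl1-/- library 3 and the highest without WT library 3, and the lowest and highest RPM medians were without Il1rl1-/- libraries 4 and 2. Scaled by total counts alone the medians were 0.07, 0.30 and 0.24. The median over all genes moved in the same direction, to −0.14, 0.23 and 0.09. The size of a member median taken alone therefore depended on the scaling, and the members moved together with all genes.

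Dhx58 (LGP2), a RIG-I-like helicase that regulates the other sensors, had the smallest adjusted p of the members between genotypes and was named after its values were seen. It was at 9.53, 12.4, 10.1, and 12 CPM in WT RPMs and 16.8, 14.7, 22.1, and 23.4 CPM in RPMs labelled Il1rl1-/-, groups that did not overlap, a log2 difference of 0.79 (SE 0.18, adjusted p = 0.152). Groups of RPMs that did not overlap between genotypes were found for 1 of 43 tested members and for 4.37% of all 11150 genes. With same-numbered mice as a block the adjusted p of edgeR was 0.0431, the only genotype call among the members under that fit. The share of all genes called under that fit is not given here. In monocytes Dhx58 was at 7.65, 7.59, 18.8, and 19.9 CPM in WT and 13.5, 14.9, 20.2, and 22.2 CPM in Il1rl1-/- mice, and in pre-RPMs at 27.2, 30.7, 28.2, and 30.7 and 26.9, 27.6, 34.8, and 28 CPM, and both pairs of groups overlapped. Oas2 in RPMs had a log2 difference of 1.35 (SE 0.51, adjusted p = 0.605), with its highest values in the libraries of mice 3 and 4 labelled Il1rl1-/-, and with the RPM libraries of mice 1 and 2 alone the difference was −0.0473. Mx1 in RPMs had 0.53 (SE 0.21, adjusted p = 0.633) and Gbp3 −0.28 (SE 0.13, adjusted p = 0.683), and Ifi207 in pre-RPMs had 0.38 (SE 0.18, adjusted p = 0.566). For the members in RPMs, the 95% confidence intervals of the difference reached from −1.71 at the lowest to 2.45 at the highest.

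Whether a step differed between genotypes was tested as an interaction. For monocytes to pre-RPMs 0 of 46 members were called (all genes, 0%), and none had an unadjusted p under 0.05. For pre-RPMs to RPMs 0 of 46 were called (all genes, 0.107%), and 7 had an unadjusted p under 0.05 (all genes, 7.52%). Dhx58 had an interaction of 0.80 (SE 0.21, adjusted p = 0.198), with log2 changes of −1.45 in WT and −0.66 in Il1rl1-/- mice. Xaf1, an inhibitor of anti-apoptotic XIAP, had 0.80 (SE 0.36, adjusted p = 0.64), and Rtp4, a chaperone of membrane receptors, had 0.59 (SE 0.33, adjusted p = 0.734). The 3 genes called in WT alone were therefore not shown to differ between genotypes. Oas2 had 1.32 (SE 0.61, adjusted p = 0.645), Mx1 0.62 (SE 0.30, adjusted p = 0.661) and Ifi205 −0.91 (SE 0.42, adjusted p = 0.645).

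**Figure D5:**
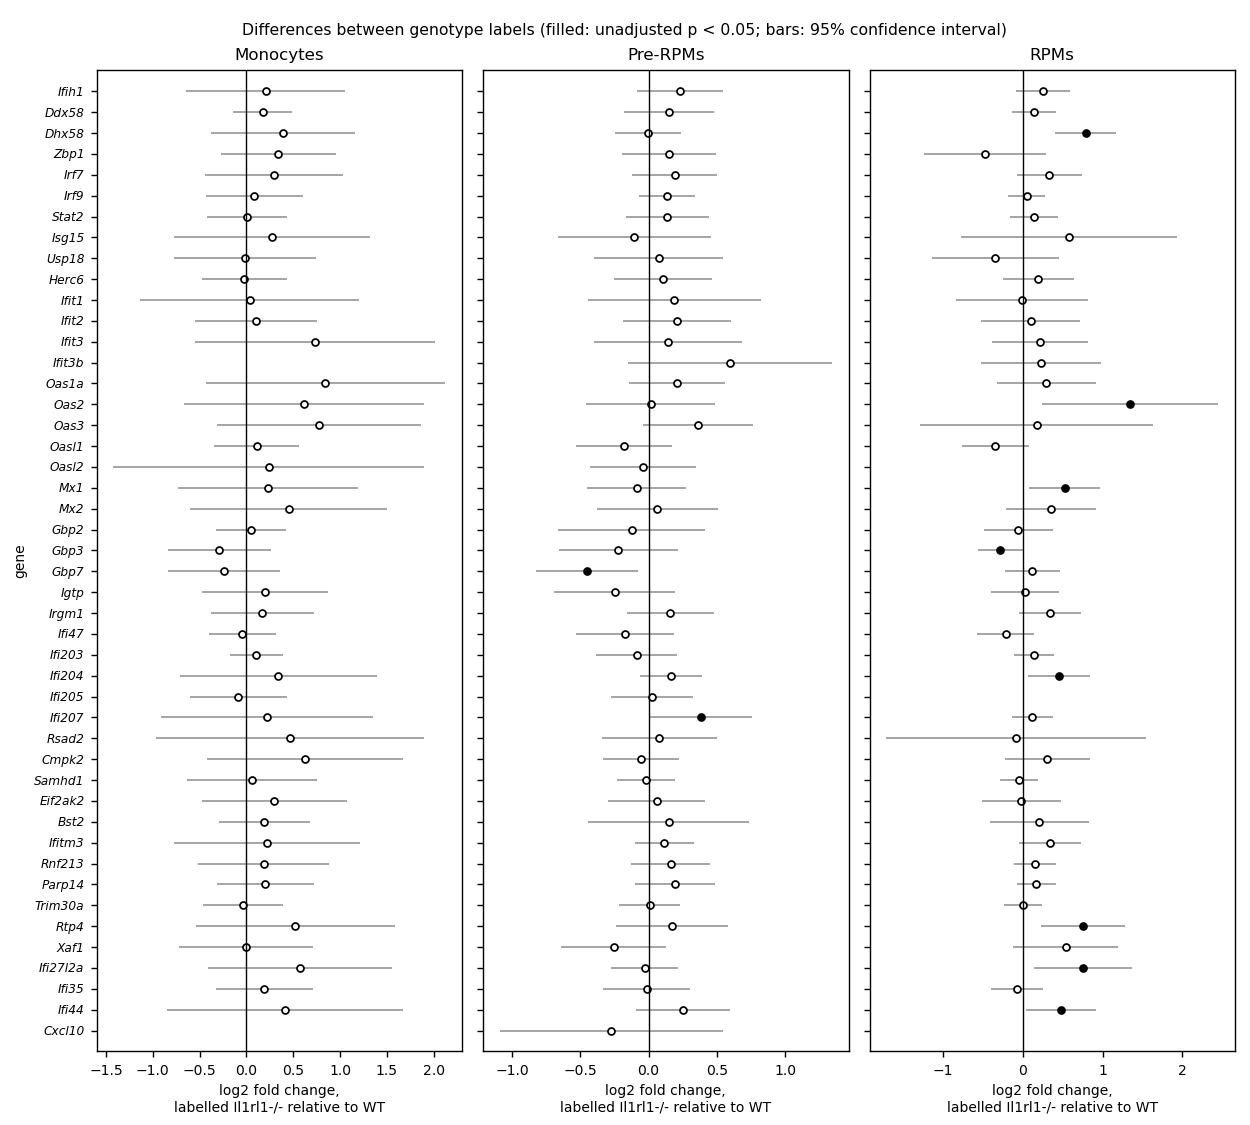
Log2 difference between genotype labels (Il1rl1-/- minus WT) of each tested member in monocytes, pre-RPMs and RPMs, each panel with its own axis, with 95% confidence intervals as bars and filled points for an unadjusted p under 0.05. Of the tested members 0, 2 and 8 are filled, and none passed an adjusted p under 0.05.

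The rest of the interferon pathway was described with lists chosen with earlier results known. Of 21 interferon ligand genes none had enough counts to be tested in any comparison. The receptor chains and kinases had 9 of 10 genes tested from pre-RPMs to RPMs, with 1 that rose and 2 that fell in both genotypes, where 14.0% of all genes rose and 10.7% fell in WT and 14.5% and 11.5% did in Il1rl1-/- mice. Il10rb, a chain shared by the IL-10 and interferon-lambda receptors, rose by 1.29 in WT and 1.41 in Il1rl1-/- mice, whereas the interferon-gamma receptor chains Ifngr1 and Ifngr2 had −1.11 and −1.20 in WT and −1.02 and −1.27 in Il1rl1-/- mice. The type I receptor itself was not called, with Ifnar1 at 66, 47.2, 52.2, and 60.9 CPM in WT pre-RPMs and 42.8, 41.5, 37.1, and 38.1 CPM in WT RPMs, and Ifnar2 at 103, 97.6, 121, and 102 and 91.9, 94.5, 101, and 102 CPM. These genes were shown as the receptor of the pathway, after their values were seen. Inhibitors of interferon signalling had 0 of 7 genes called in WT and 1 that fell in Il1rl1-/- mice. Of 19 upstream sensors and adaptors 2 rose and 6 fell in both genotypes, beside the same shares of all genes. Tlr3, the endosomal receptor for double-stranded RNA, rose by 2.34 and 2.09, Tmem173 (STING) had −1.54 and −1.63, and the kinase Ikbke had −1.56 and −1.46. None of the genes of these lists was called between genotypes or in an interaction.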

How the data were processed

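RNA of 24 sorted samples was sequenced as stranded total RNA. The deposited count tables give whole-number counts per gene, which the authors made by trimming with cutadapt, aligning with STAR 2.5.1 to GRCm38 and counting with featureCounts 1.6.2 over Ensembl 95 genes. Of the 48 samples of the series, the other 24, which are chromatin accessibility libraries, were not analysed here. In this work, each pair of groups was fitted with edgeR 4.0.16 (glmQLFit and glmQLFTest in R 4.3.3, filterByExpr, TMM), and p-values were adjusted by the Benjamini-Hochberg method over all genes tested. Between cell types a call needed an adjusted p under 0.01 and a change of more than 2-fold, and between genotypes or in interactions an adjusted p under 0.05, the thresholds of the study. The members and all lists were chosen with earlier results of these data known. Values in every library are given for the 2 members of each role with the highest mean CPM and for the 3 largest called rises and falls of each cell type comparison among genes with non-overlapping groups and a mean log2 CPM of at least 1. Of each other pathway list up to 3 called genes with the largest change are named.

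Cell types of 1 mouse number came from 1 animal by the labels, so the number pairs them. Between genotypes, deviations of same-numbered libraries correlated in every pair in monocytes (0.118 to 0.452) and RPMs (0.149 to 0.182) but not in pre-RPMs (lowest 0.0452). Between monocytes and pre-RPMs of the same mouse, these correlations were −0.0394 to 0.116 in WT and 0.126 to 0.306 in Il1rl1-/- mice. No 2 libraries were identical. Counts were also simulated for WT monocytes against pre-RPMs (11091 genes). At an adjusted p under 0.05 with no minimum fold, the edgeR fit recovered 106 of 200 genes changed 2-fold and 186 of 200 changed 4-fold. Calls between cell types used stricter criteria, so these numbers do not give the recovery of such calls. Alternatives were DESeq2 1.42.0, other scalings and filters, 1 fit of all libraries, the replicate block and leaving out each library.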

Additional observations from a re-analysis of the deposited data

Results flagged for a closer look

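Among 162 groups of 4 libraries examined for the named members, 4 held 1 library far from the other 3 (2.47%, where chance flags about 5%, or about 1 in 20 groups). The measure was the gap from that library to its nearest neighbour as a share of the group's range. Gaps were taken on log2 CPM (prior count of 2), while the levels printed beside them are CPM. Herc6 in WT pre-RPMs was flagged for its lowest library, mouse 1 at 12.8 CPM against 20.8 to 21.3 CPM in the others (gap 0.96 of the range). Ifit3 in WT pre-RPMs was flagged for its lowest library, again mouse 1, with 6.51, 10.5, 10.3, and 9.99 CPM (gap 0.896). Usp18 in WT RPMs was flagged for its lowest library, mouse 1, with 2.75, 4.48, 4.81, and 4.39 CPM (gap 0.832). Gbp3 in WT RPMs was flagged for its highest library, mouse 3, with 26.7, 27.9, 37.9, and 26.3 CPM (gap 0.841). From pre-RPMs to RPMs in WT, Usp18 was called in all 8 fits that left out 1 library, and the other 3 genes were not called. Gbp3, which rose from monocytes to RPMs in WT, was not called there without WT RPM library 3.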

How the results depend on the processing

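From pre-RPMs to RPMs the number of members called in either direction, 22 in WT (21 fell, 1 rose) and 19 in Il1rl1-/- mice (18 fell, 1 rose), stayed within 1.5 times under every alternative run, with 21 to 25 calls in WT and 16 to 22 in Il1rl1-/- mice when 1 library was left out, and 21 of the 22 and 16 of the 19 genes remained called in every such fit. Counts of calls near 0 moved more. From monocytes to pre-RPMs in WT they were 7 with DESeq2, 1 with RLE size factors, 3 with total counts (2 higher, 1 lower), 15 with every gene of at least 1 count, 8 with all 24 libraries in 1 fit and 0 to 14 without 1 library. In Il1rl1-/- mice they were 3, 0, 3, 12 and 2 under the same settings and 0 to 11 without 1 library. With the replicate block, which pairs libraries of 1 mouse between cell types and same-numbered mice between genotypes, they were 5 and 12, and between genotypes in RPMs 1. It moved no other total of calls by over 1.5 times, although the WT rises from monocytes to RPMs went from 2 to 5. From monocytes to RPMs the WT count was 13 with every gene, 3 with the RPM libraries of mice 1 and 2 and 13 with the monocyte libraries of mice 3 and 4, the last 2 chosen after seeing the data, and 5 to 10 without 1 library. The Il1rl1-/- count was 17 with the monocyte libraries of mice 3 and 4 and 8 to 14 without 1 library. With every gene of at least 1 count, 1 member was called between genotypes in monocytes, 5 in RPMs and 2 in the interaction of the last step, and leaving out 1 library gave 0 to 0 calls in every genotype and interaction comparison. Shares of all genes called are given for the main fits only. Counts of calls under the other settings therefore do not set the members against all genes. The genotype difference of Oas2 in RPMs turned to −0.0473 with the RPM libraries of mice 1 and 2. The cause of these moves was not tested.

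Total counts in place of TMM shifted the median of all genes from monocytes to pre-RPMs in WT to −0.36, with a member median of 0.49, and from pre-RPMs to RPMs in WT to 0.22, with a member median of −0.76. Members at or under 3 counts in some libraries have folds that depend on the prior count. Oasl2 in RPMs, for example, had 1, 9, 9, and 1 counts in WT and 4, 7, 4, and 1 counts in Il1rl1-/- mice.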

Other observations

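Genes known chiefly as targets of interferon-gamma were examined beside the 46 type I genes at the last step. Of 15 such genes 10 were tested from pre-RPMs to RPMs, of which 5 rose and 1 fell in WT and 3 rose and 1 fell in Il1rl1-/- mice, where 14.0% of all genes rose and 10.7% fell in WT and 14.5% and 11.5% did in Il1rl1-/- mice. Gbp8, a guanylate-binding protein, was at 2.33, 4.46, 1.71, and 3.33 CPM in WT pre-RPMs and 121, 108, 129, and 123 CPM in WT RPMs, and at 3.78, 2.2, 2.97, and 2.98 (pre-RPMs) and 85, 110.3, 104, and 116 CPM (RPMs) in Il1rl1-/- mice, log2 changes of 5.30 (SE 0.19, adjusted p = 1.2e-10) and 5.08 (SE 0.16, adjusted p = 1.07e-12). Its RPM libraries lay within a narrow range in both genotypes. The annotated span of Gbp8 overlaps those of Gbp4 and Gbp9 on the same strand, and how reads were divided among these genes was not examined. Iigp1, an IRG GTPase, had at most 3 counts in any pre-RPM library and rose, to 7.63, 10.2, 17.1, and 7.85 CPM in WT RPMs and 5.83, 7.03, 19.1, and 12.1 CPM in Il1rl1-/- RPMs. It entered the test through its RPM level, so the counts for this list describe the genes and are no test of the list. Cxcl9, a chemokine, had a log2 change of 1.27 (SE 0.35, adjusted p = 0.0071) in WT and 0.88 (SE 0.37, adjusted p = 0.0564) in Il1rl1-/- mice, and was called in WT alone. Ciita, the regulator of MHC class II genes, fell, from 90.7, 93.4, 92.6, and 104 CPM to 37.3, 52.5, 41.9, and 42.3 CPM in WT and from 118, 118, 111, and 111 to 31.2, 35.6, 23.7, and 30.2 CPM in Il1rl1-/- mice.

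Of 56 other interferon-stimulated genes 51 were tested from pre-RPMs to RPMs, and 4 rose and 20 fell in WT, 5 rose and 20 fell in Il1rl1-/- mice (all genes, 14.0% and 10.7% in WT, 14.5% and 11.5% in Il1rl1-/- mice). The steepest falls were of Plac8, from 201, 241, 231, and 228 CPM to 4.45, 8.55, 2.4, and 1.85 CPM in WT, of Ms4a4c, log2 change −4.82 (SE 0.26, adjusted p = 2.48e-09), and of Slfn1, log2 change −4.75 (SE 0.21, adjusted p = 4.71e-10), among the called genes of that list. Ube2l6, the conjugating enzyme for ISG15, rose, at 9.53, 13.6, 22.8, and 11.7 CPM in WT pre-RPMs and 37.9, 30.5, 444, and 169 CPM in WT RPMs, and at 12.8, 10.9, 13.7, and 14.9 (pre-RPMs) and 56.7, 22.9, 201, and 310.3 CPM (RPMs) in Il1rl1-/- mice, log2 changes of 3.52 (SE 0.72, adjusted p = 0.000963) and 3.45 (SE 0.61, adjusted p = 0.000191). The 8 RPM libraries ranked by Ube2l6 in the same order as by Rsad2 and by the summed erythroid markers. Isg20, an exonuclease, was at 11.9, 6.31, 98, and 43.9 CPM in WT RPMs and 15, 4.58, 43.6, and 70.1 CPM in Il1rl1-/- RPMs, also highest in mice 3 and 4. Ube2l6 and Isg20 were described after their values were seen, and the part of erythroid RNA in them was not tested.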
